A study of Mus musculus with 9 samples.

Results

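The 9 genes described here encode enzymes that carry pyruvate into the mitochondrion's citric acid cycle and turn the cycle: Pdha1, Cs, Idh2, Idh3a, Ogdh, Sucla2, Suclg1, Fh1 and Mdh2. They were taken by symbol from the 54146 genes of the deposited RNA-seq table, each symbol matching 1 row, without use of any measured value. Of the 9, Pdha1 and Sucla2 were lower in ApcMin/+; p16cis/cis mice than in ApcMin/+ mice, each by close to 31%, and their values did not overlap between the genotypes. No gene of the 9 was higher by the same test, and 7 did not pass it. Over the 14410 genes tested, the shares were 8.75% lower, 8.14% higher and 8.95% lower without overlap.

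RNA came from the colonic mucosa of 9 C57BL/6J mice at 15 wk of age, 5 of them ApcMin/+ (2 females, 3 males) and 4 of them ApcMin/+; p16cis/cis (3 females, 1 male). All 9 carried the germline ApcMin allele on 1 copy of Apc, a tumor suppressor of the colon, so no wild-type mouse and no mouse with p16cis/cis alone enters any comparison. The p16cis/cis mice also carried, on both copies and in every tissue, a knock-in next to the promoter of p16 (an inhibitor of the cell cycle) that draws DNA methylation onto that promoter. The comparison asks how expression in the mucosa differs when p16 epimutation is added to the Apc mutation. Each library was 1 mouse. The labels name colonic mucosa and the study's methods name colonic crypts, and the epithelial genes Epcam, Cdh1, Vil1, Krt8, Krt18, Krt20, Cdx1 and Cdx2 were at a summed normalized count of 135118 to 183754 in ApcMin/+ and 131056 to 167432 in ApcMin/+; p16cis/cis mice. Of these 8 genes 5 had negative and 3 positive fold changes, and 0 passed the test. Epcam, at 27841 to 38616 and 24444 to 26913, did not overlap.

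Pyruvate made by glycolysis in the cytosol enters the mitochondrion through the mitochondrial pyruvate carrier and is converted by the pyruvate dehydrogenase complex into acetyl-CoA. Citrate synthase joins acetyl-CoA to oxaloacetate, and the cycle then oxidizes citrate step by step back to oxaloacetate, passing electrons to NADH and FADH2 for respiration. Colonocytes also feed the cycle with acetyl-CoA from butyrate, the short-chain fatty acid made by gut bacteria, and pyruvate dehydrogenase kinases slow pyruvate entry by phosphorylating the subunit that Pdha1 encodes.

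Levels between genes were compared as normalized counts (reads divided by the authors' size factor for each library) per kb of the longest coding transcript. On that scale the order in ApcMin/+ mice was Mdh2, with a mean of 6373, then Cs at 5293, Suclg1 at 4758, Ogdh at 2572, Idh3a at 1958, Idh2 at 1657, Pdha1 at 1512, Fh1 at 1149 and Sucla2 at 862. In ApcMin/+; p16cis/cis mice the means ran in the same order, from 6685 for Mdh2 to 597 for Sucla2, with Pdha1 at 1046 and Fh1 at 1012. Mdh2 was above Cs, Suclg1 above Ogdh, Ogdh above Idh3a, and Fh1 above Sucla2 in 9 of 9 mice. The other 4 neighbouring pairs in this order changed places in at least 1 mouse, and Idh2 was above Pdha1 in 7 of 9. Reads behind the values ran from 786 for Sucla2 in 1 mouse to 16467 for Cs in another, so all 9 genes were well above the low-count limit and all were tested.

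**Figure D1:**
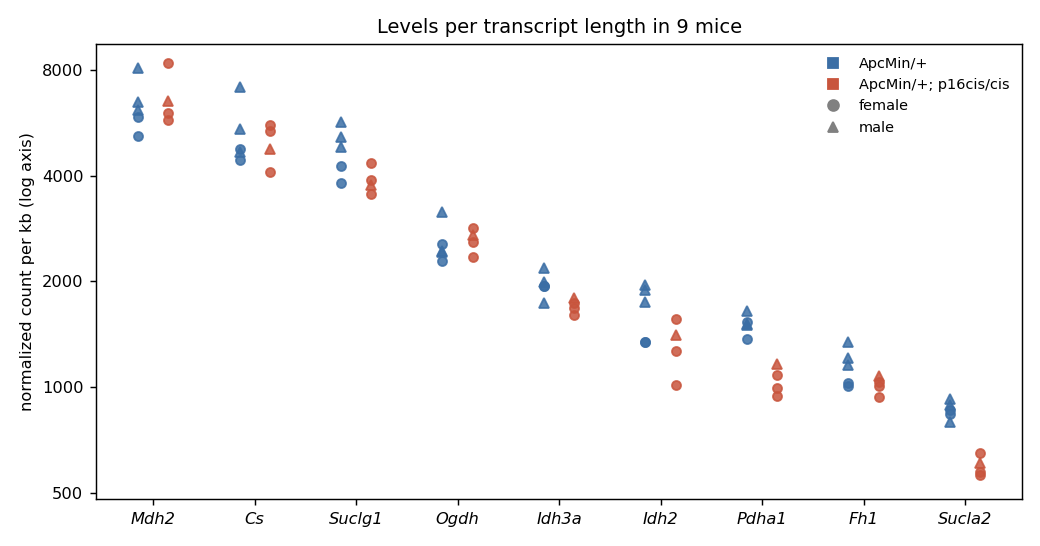
Normalized count per kb of transcript (log axis) of the 9 genes in each of 9 mice, with circles for females and triangles for males. The genes are ordered by their mean in ApcMin/+ mice, from Mdh2 at 6373 to Sucla2 at 862, and the points of the genotypes separate for Pdha1 and Sucla2.

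Pdha1 encodes the E1 alpha subunit of pyruvate dehydrogenase, the catalytic part that decarboxylates pyruvate (ENSMUSG00000031299.10, X:160122209-160138413, minus strand, GRCm38). Its normalized counts in the ApcMin/+ mice, replicates 1 to 5, were 3893, 4277, 4302, 4692 and 4372. In the ApcMin/+; p16cis/cis mice, replicates 1 to 4, they were 3310, 2683, 3086 and 2839. Every ApcMin/+ mouse was above every ApcMin/+; p16cis/cis mouse, and the highest of the latter was its single male. The means were 4307 ± 285 (SD, n = 5) and 2979 ± 276 (SD, n = 4), and the log2 fold change was -0.53 with an SE of 0.10 (95% interval -0.75 to -0.32; adjusted p = 0.00629, limma with Benjamini-Hochberg adjustment over 14410 genes).

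Sucla2 encodes the ATP-specific beta subunit of succinyl-CoA synthetase, the enzyme that splits succinyl-CoA and makes a nucleoside triphosphate (ENSMUSG00000022110.13, 14:73525319-73596142, plus strand). Its normalized counts were 1914, 2063.3, 1978, 1777 and 1873 in ApcMin/+ mice and 1350, 1254, 1277 and 1444 in ApcMin/+; p16cis/cis mice. The lowest ApcMin/+ mouse was above the highest ApcMin/+; p16cis/cis mouse by more than the range within either genotype. The means were 1921 ± 108 (SD, n = 5) and 1331 ± 85.7 (SD, n = 4), a log2 fold change of -0.53 with an SE of 0.09 (95% interval -0.72 to -0.34; adjusted p = 0.00448, limma).

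Both differences passed in each of the 9 fits that left out 1 mouse, with adjusted p of 0.00453 to 0.0253 for Pdha1 and 0.00193 to 0.0195 for Sucla2. Neither reached a fold change of 2, which 3.48% of genes did beside an adjusted p under 0.05, or passed a Bonferroni adjustment over all genes, which 0.187% passed. Of all 14410 genes tested, 16.9% passed at an adjusted p under 0.05, 8.75% with lower and 8.14% with higher values, so 2 of 9 lower and 0 of 9 higher is a count on few genes beside that background. The genotypes did not overlap in 16.2% of genes, 8.95% lower and 7.24% higher, against 2 and 0 of the 9. Of the 9 fold changes 7 were negative and 2 positive, with a median log2 of -0.20, where the median over all genes was -0.00. In a tissue sample, fewer cells of a type and less RNA in each cell cannot be told apart.

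**Figure D2:**
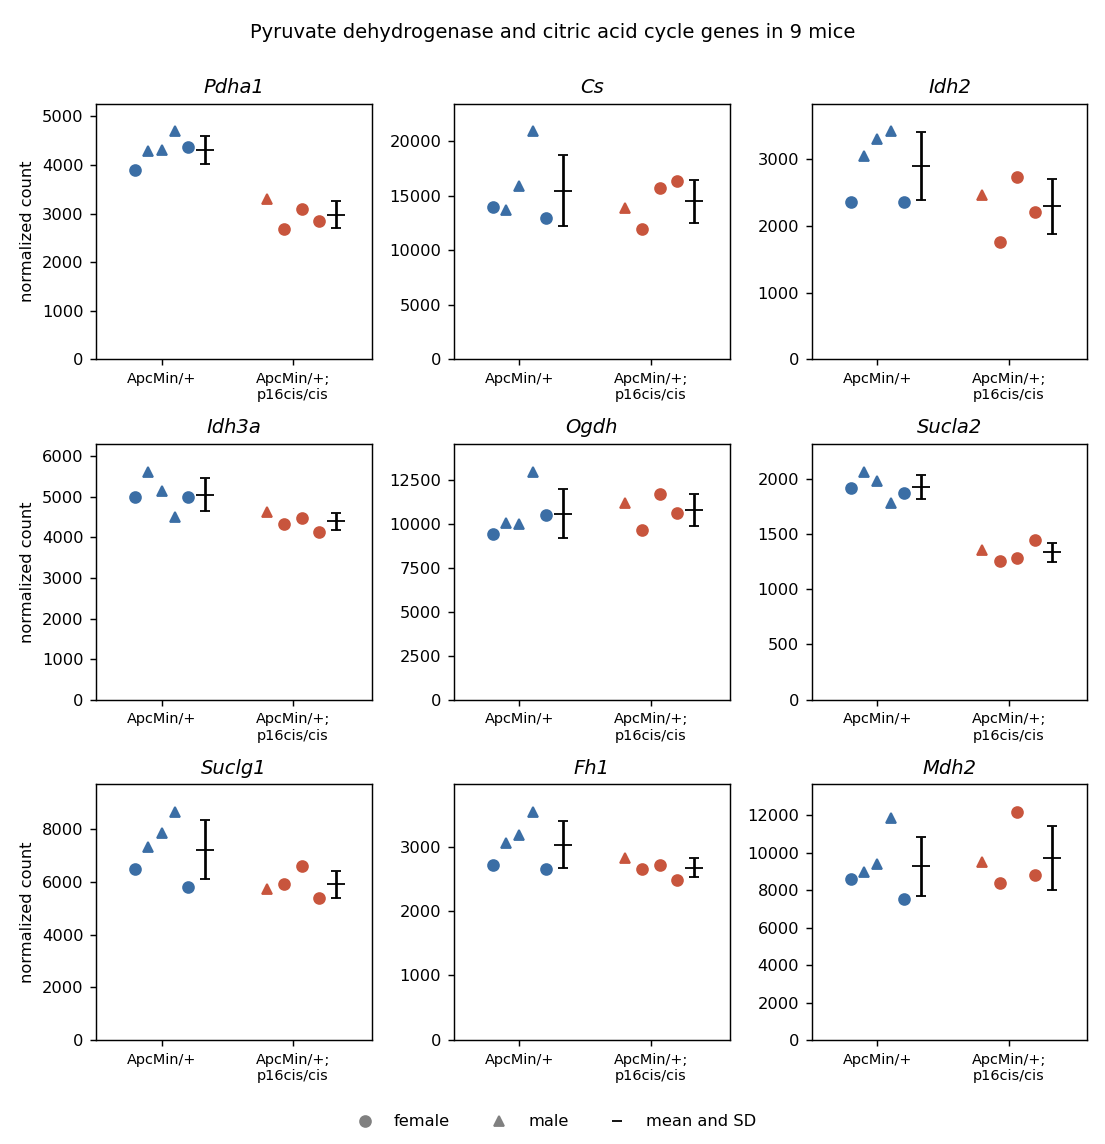
Normalized count (vertical axes from 0) of each of the 9 genes in 5 ApcMin/+ and 4 ApcMin/+; p16cis/cis mice, with circles for females, triangles for males, and the mean with its SD beside each genotype. Pdha1 (3893 to 4692 against 2683 to 3310) and Sucla2 (1777 to 2063.3 against 1254 to 1444) have no overlap, and the other 7 genes overlap.

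The promoters of Pdha1 and Sucla2 are shown because both genes passed the test. They are RefSeq sequences of the reference genome (GRCm38.p6), 250 bases before to 50 after the annotated start. Each is written 5′ to 3′ on the strand of its gene. The Pdha1 promoter is at chrX:160138381-160138680 on the minus strand, and the Sucla2 promoter at chr14:73552536-73552835 on the plus strand, at a start inside the gene's outer limits. Both were searched on both strands for TGCGCA (part of the NRF1 motif), AAGGTCA (part of the motif of estrogen-related receptors), CCGGAAG (ETS factors), CCAAT (the CCAAT box), GGGCGG (SP1) and ATGGCGG (YY1). Capitals mark the matches.
Pdha1: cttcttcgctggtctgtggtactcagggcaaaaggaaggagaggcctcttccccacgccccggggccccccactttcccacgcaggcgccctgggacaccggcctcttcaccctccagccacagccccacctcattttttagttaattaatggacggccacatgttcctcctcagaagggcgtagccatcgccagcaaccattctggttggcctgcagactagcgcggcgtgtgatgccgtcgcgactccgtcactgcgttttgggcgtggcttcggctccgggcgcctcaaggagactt
Sucla2: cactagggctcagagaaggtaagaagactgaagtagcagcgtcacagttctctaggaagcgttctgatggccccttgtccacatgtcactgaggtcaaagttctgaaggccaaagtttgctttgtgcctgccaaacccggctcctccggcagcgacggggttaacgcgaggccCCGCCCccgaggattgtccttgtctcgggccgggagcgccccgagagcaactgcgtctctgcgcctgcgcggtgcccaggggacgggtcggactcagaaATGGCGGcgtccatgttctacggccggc
The Pdha1 window held none of these 6 exact strings. The Sucla2 window held GGGCGG on the opposite strand (printed as CCGCCC), beginning at -77 from the start, and ATGGCGG, beginning at +23, with no overlap between the matches. Of 32851 mouse promoters of this length, 35.7% held GGGCGG, 4.05% ATGGCGG, 37.4% CCAAT, 8.86% CCGGAAG, 7.76% TGCGCA and 4.72% AAGGTCA. The pair therefore shared none of the 6 strings, and both windows had a GC content of 62.0%. Only exact letters were searched, so sites of the same factors with other letters were not looked for in either window. Of the 9 genes 8 had a promoter in the RefSeq table; Idh3a was not in it.

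Suclg1 encodes the alpha subunit of succinyl-CoA synthetase, which pairs with Sucla2 or with the GTP-specific subunit Suclg2 (6:73248382-73276911, plus strand). Its normalized counts were 6499, 7326, 7849, 8665 and 5793 in ApcMin/+ mice and 5734, 5920, 6603 and 5384 in ApcMin/+; p16cis/cis mice. The 3 male ApcMin/+ mice were the highest and the 2 females lay within the range of the other genotype. The log2 fold change was -0.28 (SE 0.13, 95% interval -0.56 to -0.00) and did not pass the test (adjusted p = 0.15, limma). Among females alone it was -0.04.

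Idh2 encodes the NADP-dependent isocitrate dehydrogenase of the mitochondrion, and Idh3a the catalytic subunit of the NAD-dependent enzyme that serves the cycle itself (7:80094846-80115392, minus strand, and 9:54586334-54604661, plus strand). Idh2 was at 2351, 3047, 3295, 3416 and 2351 in ApcMin/+ mice and at 2456, 1764, 2736 and 2214 in ApcMin/+; p16cis/cis mice, a log2 fold change of -0.33 (SE 0.16, 95% interval -0.67 to 0.00; adjusted p = 0.156, limma). Its 3 male ApcMin/+ mice stood above all other mice. Idh3a was at 4998, 5621, 5152, 4490 and 4992 in ApcMin/+ mice and at 4634, 4324, 4478 and 4143 in the other 4, a log2 fold change of -0.20 (SE 0.09, 95% interval -0.40 to 0.01; adjusted p = 0.167, limma). A single ApcMin/+ mouse, replicate 4, overlapped the ApcMin/+; p16cis/cis range of Idh3a. With GC content and length corrected for, Idh2 passed the test, with a log2 fold change of -0.48 and an adjusted p of 0.0487 (limma).

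Fh1 encodes fumarase, which hydrates fumarate to malate (1:175600374-175625635, minus strand). Its normalized counts were 2713, 3055, 3185, 3539 and 2656 in ApcMin/+ and 2827, 2648, 2720 and 2477 in ApcMin/+; p16cis/cis mice, and the values overlapped. The log2 fold change was -0.18 (SE 0.10, 95% interval -0.41 to 0.05; adjusted p = 0.265, limma).

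Cs, Mdh2 and Ogdh had the smallest differences. Cs encodes citrate synthase, which commits acetyl-CoA to the cycle (10:128337734-128362479, plus strand). It was at 13955, 13688, 15872, 20932 and 12988 in ApcMin/+ mice and at 13936, 12008, 15706 and 16347 in ApcMin/+; p16cis/cis mice. ApcMin/+ replicate 4 was the highest of the 9, and the log2 fold change of -0.08 (SE 0.16; adjusted p = 0.758, limma) had a 95% interval of -25.9% to 20.3%.

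Mdh2 encodes the mitochondrial malate dehydrogenase that regenerates oxaloacetate (5:135778480-135790398, plus strand). Its normalized counts were 8588, 8965, 9430, 11852 and 7558 in ApcMin/+ and 9533, 8394, 12194 and 8812 in ApcMin/+; p16cis/cis mice. Each genotype had 1 mouse well above its others. The log2 fold change was 0.07 (SE 0.15, 95% interval -0.26 to 0.40; adjusted p = 0.786, limma), and it was -0.12 after the GC and length correction.

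Ogdh encodes the E1 subunit of the 2-oxoglutarate dehydrogenase complex, a relative of pyruvate dehydrogenase that makes succinyl-CoA (11:6291633-6356642, plus strand). It was at 9454, 10048, 10022, 13008 and 10538 in ApcMin/+ mice and at 11207, 9665, 11749 and 10657 in ApcMin/+; p16cis/cis mice. The log2 fold change was 0.03 (SE 0.12; adjusted p = 0.880, limma) with a 95% interval of -14.8% to 22.9%. For Cs, Mdh2 and Ogdh the direction turned when a single mouse was left out, with log2 ranges over the 9 such fits of -0.14 to 0.03, -0.04 to 0.16 and -0.01 to 0.11. It turned for Cs without ApcMin/+ replicate 4 or ApcMin/+; p16cis/cis replicate 2, for Mdh2 without ApcMin/+ replicate 5 or ApcMin/+; p16cis/cis replicate 3, and for Ogdh without ApcMin/+ replicate 1 or ApcMin/+; p16cis/cis replicate 3.

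The subunits that work beside these enzymes were compared as the log2 ratio of reads within each mouse, a measure that does not depend on library scaling; 7 pairs were tested and none passed after adjustment. Pdha1 to Pdhb, the alpha and beta subunits of the same E1 heterotetramer, had ratios of 1.17 to 1.61 in ApcMin/+ and 0.74 to 1.31 in ApcMin/+; p16cis/cis mice, which overlap. Their means were 1.41 ± 0.16 (SD, n = 5) and 0.99 ± 0.27 (SD, n = 4), a difference of -0.42 (two-sided exact permutation p = 0.0238, Benjamini-Hochberg over 7 pairs 0.111). Pdhb itself was at 1628 ± 137 and 1504 ± 142 normalized counts, a log2 fold change of -0.11 with a 95% interval of -0.34 to 0.11 (adjusted p = 0.470, limma).

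For the beta subunits of succinyl-CoA synthetase the ratio Sucla2 to Suclg2 averaged -0.46 ± 0.15 (SD, n = 5) and -0.41 ± 0.10 (SD, n = 4), a difference of 0.05 (exact permutation p = 0.619, adjusted 0.619). Suclg2, the GTP-specific subunit, was lower too, at 2656 ± 260 against 1772 ± 78.5 normalized counts with no overlap (log2 fold change -0.58, SE 0.10; adjusted p = 0.00448, limma). Both beta subunits thus passed the test and the shared alpha subunit Suclg1 did not, but the ratio Sucla2 to Suclg1 differed by -0.25 (exact permutation p = 0.159, adjusted 0.278), so unequal change was not shown.

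Ogdh to Dlst, the E1 and E2 subunits of 2-oxoglutarate dehydrogenase, differed by 0.25 (exact permutation p = 0.0635, adjusted 0.148), and Mdh2 to its cytosolic counterpart Mdh1 by 0.25 (exact permutation p = 0.0317, adjusted 0.111). In both the mean ratio was greater in ApcMin/+; p16cis/cis mice. Dlst was at 4803 ± 186 and 4134 ± 198 normalized counts, which did not overlap, with a log2 fold change of -0.22 that missed the threshold in limma (adjusted p = 0.101) and passed in DESeq2 (adjusted p = 0.0395). Idh3a to Idh3b differed by -0.12 (exact permutation p = 0.357, adjusted 0.50) and Idh2 to Idh3a by -0.14 (exact permutation p = 0.468, adjusted 0.546).

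**Figure D3:**
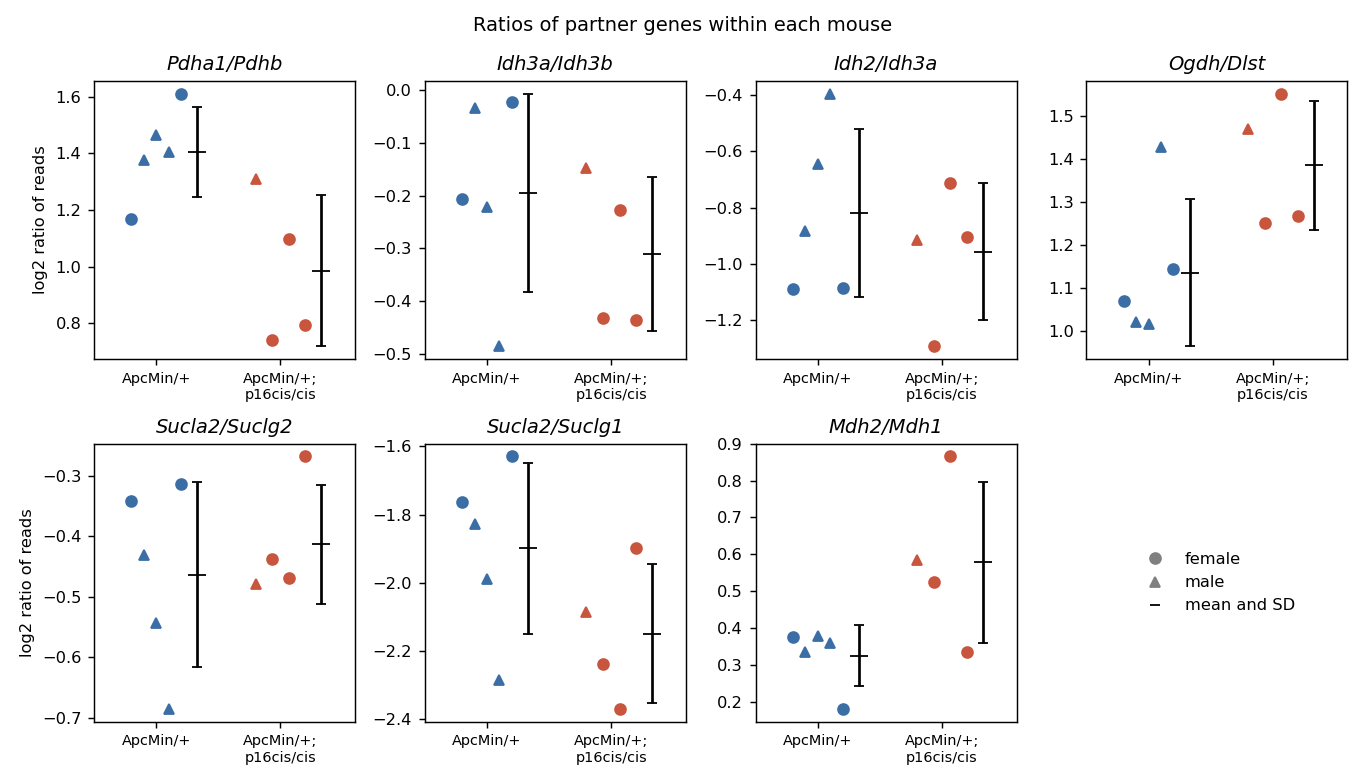
Log2 ratio of the reads of 7 gene pairs within each of 9 mice (circles female, triangles male), with mean and SD for each genotype; the vertical axes differ between panels and do not start at 0. Pdha1/Pdhb averages 1.41 in ApcMin/+ and 0.99 in ApcMin/+; p16cis/cis mice, Sucla2/Suclg2 averages -0.46 and -0.41, and no pair passed after adjustment.

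The 40 other genes compared covered pyruvate entry, the cycle, mostly cytosolic enzymes of related reactions, genes that feed or drain it, and carriers. Of these 40, grouped by role, 10 fell and 0 rose past the same threshold (adjusted p under 0.05, limma), and their median log2 fold change was -0.23. Their fold changes were negative in 34 and positive in 6, and the values of 10 did not overlap, all lower. Over all genes tested the shares were 8.75% lower, 8.14% higher and 8.95% lower without overlap. These genes were listed with earlier results on the same mice known.

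Pyruvate entry held 14 of them, with 6 lower, 0 higher and a median log2 fold change of -0.36. The E2 and E3 subunits of pyruvate dehydrogenase were among the 6: Dlat, the acetyl transferase, was at 2302 ± 134 against 1724 ± 131 normalized counts (log2 fold change -0.42, SE 0.09; adjusted p = 0.0119, limma). Dld, the dihydrolipoamide dehydrogenase that pyruvate and 2-oxoglutarate dehydrogenase share, was at 3243 ± 214 against 2099 ± 175 (log2 fold change -0.63, SE 0.09; adjusted p = 0.00299, limma). Pdhx, which tethers the E3 subunit, was at 561 ± 40.7 against 424 ± 44.5 (log2 fold change -0.41, SE 0.11; adjusted p = 0.0281, limma).

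Of the 4 kinases that switch the complex off, Pdk1 and Pdk4 were lower. Pdk4, the kinase known to be induced by fasting and fatty acids, was at 183, 457, 1215, 1489 and 270 normalized counts in ApcMin/+ mice and at 96.0, 75.0, 67.6 and 130 in ApcMin/+; p16cis/cis mice. It varied far more within ApcMin/+ than any of the 9 genes, the 3 males being the highest, yet no value overlapped. Its log2 fold change was -2.55 (SE 0.54; adjusted p = 0.0105, limma), and it was -2.09 with sex as a covariate (adjusted p = 0.0202, limma) and -1.34 among females alone (adjusted p = 0.0432, limma). Pdk1, a kinase induced by hypoxia, was at 1700 ± 271 against 1027 ± 238 (log2 fold change -0.74, SE 0.16; adjusted p = 0.0115, limma). Mpc1, a subunit of the pyruvate carrier, was at 177 ± 48.2 against 102 ± 13.6 with overlap (log2 fold change -0.75, SE 0.22; adjusted p = 0.0390, limma). Its partner Mpc2 had a log2 fold change of 0.09, the kinase Pdk2 of 0.13 and the phosphatase Pdp1 of 0.14, none of which passed. Pdk3 was at -0.31 and did not pass (adjusted p = 0.110, limma), though it did without ApcMin/+; p16cis/cis replicate 3 (log2 fold change -0.42, adjusted p = 0.0284, limma).

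Of 9 further genes of the cycle 2 were lower, Suclg2 and Sdha, and 0 higher. Sdha, the flavoprotein of succinate dehydrogenase, was at 8915 ± 803 against 6567 ± 523 (log2 fold change -0.44, SE 0.11; adjusted p = 0.0185, limma), while Sdhb, Sdhc and Sdhd had log2 fold changes of -0.01, 0.19 and -0.24 and did not pass. The 7 genes of related reactions were cytosolic but for Me2 and Me3, the mitochondrial malic enzymes. Of these 7, 1 was lower, Idh1, the cytosolic NADP-dependent isocitrate dehydrogenase (log2 fold change -0.40, SE 0.10; adjusted p = 0.0211, limma). Of 5 genes that feed or drain the cycle (Glud1, Got1, Got2, Pck1, Pck2) 0 passed, and of 5 carriers 1 was lower, Slc25a13, an exchanger of aspartate and glutamate (log2 fold change -0.75, SE 0.15; adjusted p = 0.00843, limma).

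Of the 10, Dld, Suclg2, Slc25a13, Pdk4, Pdk1 and Dlat passed whichever mouse was left out. Sdha did not pass without ApcMin/+ replicate 3 or ApcMin/+; p16cis/cis replicate 2 or 4 (adjusted p = 0.0514, 0.0593 and 0.0603, limma). The count of lower genes without these 3 mice was 6, 6 and 6. Idh1 did not pass without ApcMin/+ replicate 2 or 3 or ApcMin/+; p16cis/cis replicate 2 or 4 (0.0570, 0.0533, 0.0578 and 0.0683). Pdhx did not pass without ApcMin/+ replicate 2 or 3 or ApcMin/+; p16cis/cis replicate 1, 2 or 4 (0.0769, 0.0663, 0.0607, 0.0616 and 0.0828). Mpc1 passed only in the fits without ApcMin/+ replicate 4 or 5, with adjusted p of 0.0523 to 0.113 in the other 7.

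**Figure D4:**
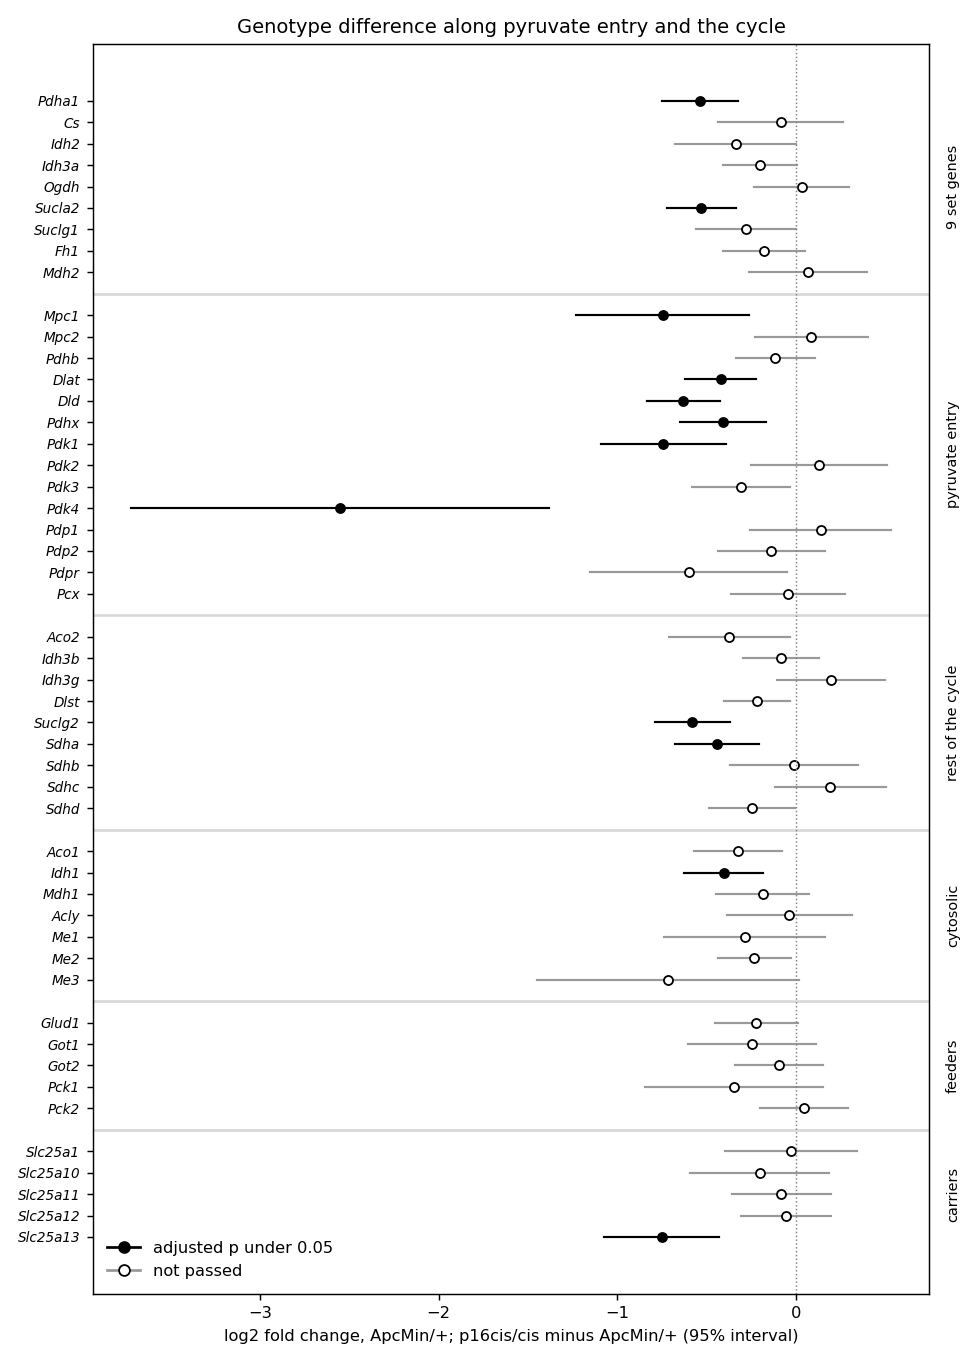
Log2 fold change of ApcMin/+; p16cis/cis against ApcMin/+ mice with its 95% interval for the 9 genes and 40 others of the pathway, filled where the adjusted p was under 0.05. Of the 9 genes Pdha1 and Sucla2 are filled at -0.53, 10 of the others are filled, all on the lower side, and Pdk4 lies farthest out at -2.55. The group labelled cytosolic also holds the mitochondrial malic enzymes Me2 and Me3.

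Sex was unequal between the genotypes. In ApcMin/+ mice the 3 males were above both females in 4 of the 9 genes, where 13.5% of all genes had that order and 25.7% separated the sexes in either direction. For Idh2 females were at 2351 and males at 3047 to 3416, for Suclg1 at 5793 to 6499 and 7326 to 8665, for Fh1 at 2656 to 2713 and 3055 to 3539, and for Mdh2 at 7558 to 8588 and 8965 to 11852. None of the 9 had a sex effect past the test with genotype in the fit; that of Idh2 was 0.35 on the log2 scale, higher in males (adjusted p = 0.992, limma). With sex as a covariate Pdha1 had a log2 fold change of -0.48 (adjusted p = 0.019, limma) and Sucla2 of -0.52 (adjusted p = 0.015, limma), where 5.28% of genes were lower. In that fit 8 of the 10 lower pathway genes passed, and Pdhx and Mpc1 did not (log2 fold changes -0.39 and -0.59, adjusted p = 0.0690 and 0.0930, limma). Among females alone, 2 against 3, Pdha1 was at -0.53 (adjusted p = 0.0571, limma) and Sucla2 at -0.52 (adjusted p = 0.0580, limma), so neither passed. Pdha1 lies on the X chromosome, and its ApcMin/+ males and females overlapped.

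Differences between these libraries moved with GC content. Among the 4801 genes with transcripts of at most 47.0% GC the median log2 fold change was -0.19 and 16.6% were lower, and among the 4801 above 53.2% it was 0.17 and 2.62% were lower. Sucla2 at 43.2% and Pdha1 at 45.5% had the lowest GC content of the 9 genes. Once the dependence on GC content and length was removed within each library, under which 5.62% of genes were lower, Pdha1 was at -0.40 (adjusted p = 0.030, limma) and Sucla2 at -0.38 (adjusted p = 0.017, limma). With the replicate number added to that fit as a block, Sucla2 still passed (-0.40, adjusted p = 0.0443, limma). Pdha1 then did not (-0.41, adjusted p = 0.0652, limma). Pdk1, Dlat, Idh1 and Pdhx were then at -0.58, -0.28, -0.26 and -0.29 and no longer passed (adjusted p = 0.0550, 0.0728, 0.0809 and 0.104, limma), and Sdhd passed at -0.35 (adjusted p = 0.0327, limma).

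**Figure D5:**
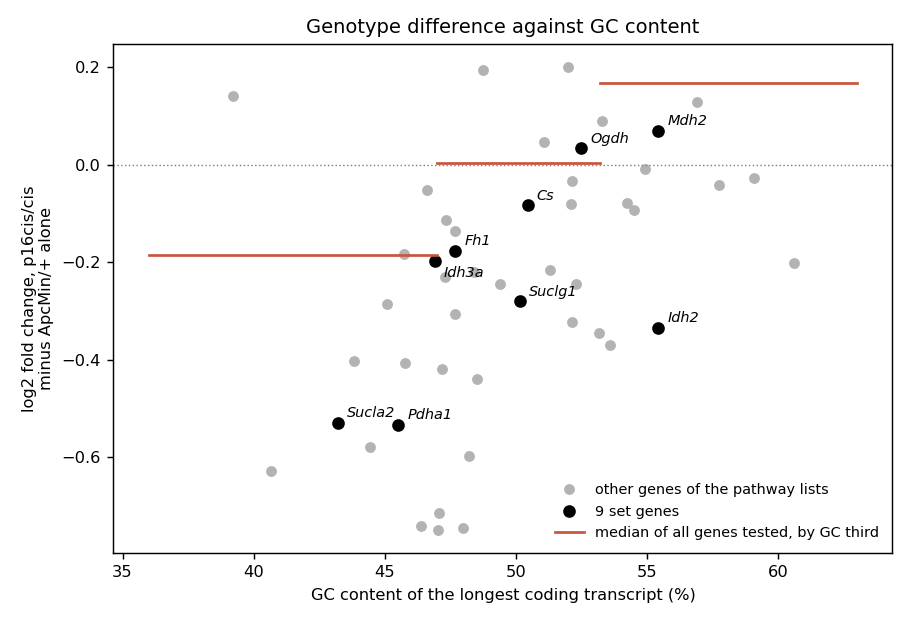
Log2 fold change of ApcMin/+; p16cis/cis against ApcMin/+ mice plotted on the GC content of the longest coding transcript (percent), for the 9 genes (black, named) and the other pathway genes (grey, without Pdk4), with red lines for the median of all genes of low, middle and high GC, drawn over the plotted range only. Sucla2 and Pdha1 lie at the low-GC end at -0.53, and the medians climb from -0.19 through 0.00 to 0.17.

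Reads on mitochondrial genes made up 12.05% ± 2.87 (SD, n = 5) of reads in ApcMin/+ mice, while the 4 ApcMin/+; p16cis/cis mice had 24.2% ± 4.41 (SD), without overlap (two-sided exact permutation p = 0.00794, the smallest this design can give). With this share in the fit 0 of all genes passed in either direction, and Pdha1 was at -0.23 and Sucla2 at -0.43 (adjusted p = 0.864 and 0.848, limma). The share and the genotype cannot be told apart. With libraries scaled to their reads on nuclear genes both genes still passed, and the 9 genes together took 0.373% ± 0.0272 (SD, n = 5) and 0.343% ± 0.0198 (SD, n = 4) of nuclear reads.

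Markers of mature colonocytes (Slc26a3, Car1, Car4, Aqp8, Ceacam20) summed to 99704 to 200340 normalized counts in ApcMin/+ and 62589 to 80735 in ApcMin/+; p16cis/cis mice, with 1 of 5 lower by the test, Slc26a3. Car1, the largest part of these sums, was at 64999.5 to 165058 and 40059.5 to 68015.5, which overlap, and did not pass (adjusted p = 0.0750, limma). Car4, Aqp8 and Ceacam20 overlapped between the genotypes too and did not pass. Genes of crypt base and dividing cells (Lgr5, Ascl2, Smoc2, Axin2, Mki67, Top2a) summed to 5279 to 8868 and 8852 to 11722, with 1 of 6 higher, Mki67. Mki67, a large part of the difference in these sums, was at 2332 ± 454 and 4436 ± 969. The other 5 did not pass, with log2 fold changes from 0.10 for Lgr5 to 0.65 for Ascl2. Top2a, also of dividing cells, was at 0.16. The goblet cell genes Muc2, Tff3, Clca1, Fcgbp, Spink4 and Agr2 summed to 226764 to 412424 and 277561 to 553424, with Spink4 higher. Of 13 immune genes 12 were tested and 2 were lower, Lyz2 and Jchain, with sums of 202 to 2131 and 450 to 661. Fold changes were negative in 9 of the 12 and positive in 3. Those 3 were Cd68, Cd3g and Cd3e, at log2 fold changes of 0.85, 0.57 and 0.18, and they did not pass. Of 9 stromal genes 8 were tested and 1 was lower, Col3a1, with sums of 233 to 712 and 164 to 345. Beside these marker counts, 8.75% of all genes tested were lower and 8.14% higher. No marker was at 0 in every mouse. The part of cell composition, mitochondrial share and GC content in the differences of Pdha1 and Sucla2 was not tested beyond the fits given.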

How the data were processed

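The study sequenced polyadenylated and rRNA-depleted RNA of 9 mice on the BGISEQ-500 platform, aligned reads with Bowtie2, estimated gene levels with RSEM and compared genotypes with DESeq2; versions, genome build and annotation are not given in the sources used here. The deposited table, 1 column for each mouse, holds signal values, which the authors made by dividing the reads of each gene by a size factor for each library. Of its positive values 100% were whole multiples of 1 read (within 0.01 reads), so reads could be recovered: 13523500 to 17885918 on genes for each mouse, medians of 16838756 (ApcMin/+) and 14229260 (ApcMin/+; p16cis/cis). Gene identifiers matched GENCODE M21 (52480 of 54146 with the same version), whose GRCm38 coordinates, transcript lengths and GC content were used. Since RSEM shares reads among gene copies, values of genes with near-identical copies are estimates. Of the 9 genes 5 overlap another gene, of which the most read, Map3k15 (opposite strand to Pdha1), averaged 39.9 reads; whether counting used strand is not given in the sources used here.

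Genotypes were taken from the labels. Genes reaching a normalized count of 10 in 4 or more mice (14410) were tested with limma 3.58.1 (R 4.3.3; eBayes with a trend) on log2(normalized count + 1), the scale of every log2 fold change, with Benjamini-Hochberg adjustment; differences are ApcMin/+; p16cis/cis minus ApcMin/+. On the recovered reads edgeR 4.0.16 (quasi-likelihood, TMM) called 1304 genes lower and 1165 higher, and DESeq2 1.42.0 called 1725 and 1526. Ratios were tested by exact permutation over the 126 splits of the mice. Text names the 9 genes, the partners of the ratios, Pdk4, and the pathway genes past the threshold, at most 12 by adjusted p. Mpc2, Pdk2, Pdk3, Pdp1, Sdhb, Sdhc, Sdhd, Me2, Me3, Glud1, Got1, Got2, Pck1, Pck2 and the marker genes were named outside that rule. Tested on simulated data for this comparison, the fit called 53.5% of 200 genes changed 2-fold among 14410, and 5.31% of its calls were unchanged genes. Those data held no dependence on GC content and no difference in mitochondrial share, and their changes were larger than those of Pdha1 and Sucla2. The rates therefore need not hold for the real libraries. Other scalings, filters, pseudocounts, tests, covariates and sets of mice were tried. A gene of the pathway lists is not reported here. The genes, lists and tests were chosen with earlier results of these data known.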

Additional observations from a re-analysis of the deposited data

Results flagged for a closer look

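The check covered 64 groups of 4 or 5 mice, each a measure reported above within a genotype, but not every gene named. Of these groups 3 held a mouse that stood apart from the others by Dixon's criterion, where chance gives about 3.2. Dlst was at 4429 normalized counts in ApcMin/+; p16cis/cis replicate 4 and at 4005 to 4060 in the other 3. Mdh1 was at 9239 in ApcMin/+ replicate 4 and at 6616 to 7261 in the other 4. The log2 ratio of Mdh2 to Mdh1 was 0.18 in ApcMin/+ replicate 5 and 0.33 to 0.38 in the other 4.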

How the results depend on the processing

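Pdha1 and Sucla2 were both lower and no other of the 9 genes was called under 2 other filters, another pseudocount, 3 other scalings, edgeR with either scaling, DESeq2, sex as a covariate and each omission of a mouse (2 to 2 lower). The number of the 9 called lower was 0 in females alone, 1 (Sucla2) with the GC and length correction and replicate block together, 0 with the mitochondrial share as a covariate, 0 by Bonferroni and 0 past a fold change of 2. Among all genes, 1261 lower and 1173 higher became 761 and 676 with sex as a covariate, 429 and 569 in females alone, 809 and 846 with the GC and length correction, 665 and 579 with that correction and the block, 0 and 0 with the mitochondrial share, 22 and 5 by Bonferroni, and 237 and 264 past a fold change of 2. Omitting a mouse gave 649 to 1794 lower and 528 to 1694 higher, with 719 and 638 without ApcMin/+ replicate 2, 686 and 631 without ApcMin/+ replicate 3, 682 and 560 without ApcMin/+; p16cis/cis replicate 2 and 649 and 528 without its replicate 4. The number of lower pathway genes, 10 above, was 1 in females alone, 7 with the GC and length correction (6 of the 10, with Sdhd gained), 5 with the block added, 0 with the mitochondrial share, 0 by Bonferroni, 1 past a fold change of 2, and 6 to 10 on omitting a mouse. Directions turned for Cs (0.11 in females, 0.24 with the mitochondrial share), Idh2 (0.43), Fh1 (0.092) and Mdh1 (0.033) with the mitochondrial share, Mdh2 (-0.12 with the GC and length correction, -0.16 with the block added), Idh3b (0.039 in females), and the ratios Idh2 to Idh3a (0.12) and Sucla2 to Suclg2 (-0.064) in females. On omitting a mouse the log2 ranges that crossed 0 were -0.14 to 0.031 for Cs, -0.0078 to 0.11 for Ogdh, -0.044 to 0.16 for Mdh2 and -0.0057 to 0.087 for Sucla2 to Suclg2. The cause of these changes was not tested, beyond the fewer mice of the female and omission fits. Females alone, 2 against 3, cannot give an exact p below 0.1, nor 4 pairs one below 0.125.

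Replicate numbers occur in both genotypes, but deviations of same-numbered mice correlated at -0.18, 0.07, 0.05 and 0.14, and 2 of 4 ApcMin/+; p16cis/cis mice correlated best with their own number, so the numbers were not treated as pairs. With a replicate block Pdha1 (-0.53, adjusted p = 0.022, limma) and Sucla2 (-0.54, adjusted p = 0.017, limma) remained lower, 1095 genes were lower and 979 higher, and Mdh2 was at -0.00031. A genotype by sex interaction, added after seeing the data and resting on 1 male ApcMin/+; p16cis/cis mouse, passed for 0 genes by limma (979 at an unadjusted p under 0.05) and was not run with another tool.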
